A study of Mus musculus with 4 samples.

Results

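The granzymes A to G are 7 mouse genes, Gzma, Gzmb, Gzmc, Gzmd, Gzme, Gzmf and Gzmg, and their probes were chosen by matching the RefSeq accession of each gene probe to these genes. This gave 8 of the 39429 gene probes of the array, for 7 of the 20140 genes that could be named, with 2 probes for Gzme and 1 for each other gene. The genes were chosen with the signals of these same arrays known, so their levels and differences are given as a description. The study asked which regulator holds down genes inducible by IFN-γ, the interferon made by activated T and natural killer cells, in tumor cells. It measured total RNA of 2 mouse tumor lines after 24 h of culture on 1 slide of 4 Agilent arrays, with 1 array per group.

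The groups were LLC cells with IFN-γ, LLC cells with vehicle, AB1-HA cells with IFN-γ and AB1-HA cells with vehicle. LLC, also written 3LL in the labels, is the Lewis lung carcinoma line, labelled as strain C57BL6. AB1-HA is a mesothelioma line of strain BALB/c that carries the influenza hemagglutinin as a marker antigen. Each line is a single line of its tumor type, so in a comparison of the lines the line, the tumor type and the strain cannot be told apart. With 1 array per group there is no replicate spread, no difference was tested, and 2-fold was used as a size and not as a test. The sources used here do not say whether an array held RNA of 1 culture or of a pool.

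Granzymes are serine proteases kept in the secretory granules of cytotoxic T cells and natural killer cells. They are packed with the proteoglycan serglycin, trimmed to their active form by the dipeptidase cathepsin C, and enter a target cell with the help of the pore former perforin, where granzyme B cuts after aspartate and sets off caspases while granzyme A cuts after basic residues. In the mouse the genes of granzymes B to G lie in a tandem cluster beside the mast cell chymases, and Gzma lies next to Gzmk on another chromosome. Granzymes C to G are close copies of one another in rodents and are known from long-activated killer cells, with granzymes D to G also known from the uterus in pregnancy.

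The start regions of Gzmc, Gzmd, Gzme, Gzmf and Gzmg are printed because they are close copies, while among these 5 genes a probe signal was found for Gzme alone. Each is the RefSeq window of 300 bases, 250 before and 50 after the annotated start, on the minus strand of chromosome 14 in build GRCm38.p6, written 5′ to 3′. The windows lie at chr14:56120576-56120875 for Gzme, chr14:56132544-56132843 for Gzmd, chr14:56159530-56159829 for Gzmg, chr14:56211358-56211657 for Gzmf and chr14:56234608-56234907 for Gzmc. Capitals mark matches, on either strand, to TGTGGT, the core of the motif of RUNX factors, and to TGACGT, a part of the cAMP response element.
Gzme: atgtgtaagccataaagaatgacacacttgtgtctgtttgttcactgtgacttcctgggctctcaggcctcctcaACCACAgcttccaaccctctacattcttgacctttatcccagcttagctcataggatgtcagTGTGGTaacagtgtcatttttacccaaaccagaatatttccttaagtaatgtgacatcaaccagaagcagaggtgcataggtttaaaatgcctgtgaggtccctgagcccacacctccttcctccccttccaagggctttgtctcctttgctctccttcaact
Gzmd: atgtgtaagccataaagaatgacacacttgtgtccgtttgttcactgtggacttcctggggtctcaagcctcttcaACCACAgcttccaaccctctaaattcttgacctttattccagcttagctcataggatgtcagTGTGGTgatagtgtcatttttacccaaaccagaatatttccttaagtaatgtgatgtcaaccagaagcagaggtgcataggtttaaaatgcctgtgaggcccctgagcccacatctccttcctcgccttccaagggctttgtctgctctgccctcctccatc
Gzmg: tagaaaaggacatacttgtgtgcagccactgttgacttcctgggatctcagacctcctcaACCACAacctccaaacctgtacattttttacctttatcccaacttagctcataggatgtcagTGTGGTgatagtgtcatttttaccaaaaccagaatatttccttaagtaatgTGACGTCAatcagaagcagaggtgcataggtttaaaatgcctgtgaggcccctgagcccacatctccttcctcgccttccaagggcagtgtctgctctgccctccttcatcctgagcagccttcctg
Gzmf: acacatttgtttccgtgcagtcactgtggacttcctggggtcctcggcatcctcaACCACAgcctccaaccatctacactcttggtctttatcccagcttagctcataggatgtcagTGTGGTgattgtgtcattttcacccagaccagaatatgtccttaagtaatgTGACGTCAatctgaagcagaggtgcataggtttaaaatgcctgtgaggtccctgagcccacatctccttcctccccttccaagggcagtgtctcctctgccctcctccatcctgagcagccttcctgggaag
Gzmc: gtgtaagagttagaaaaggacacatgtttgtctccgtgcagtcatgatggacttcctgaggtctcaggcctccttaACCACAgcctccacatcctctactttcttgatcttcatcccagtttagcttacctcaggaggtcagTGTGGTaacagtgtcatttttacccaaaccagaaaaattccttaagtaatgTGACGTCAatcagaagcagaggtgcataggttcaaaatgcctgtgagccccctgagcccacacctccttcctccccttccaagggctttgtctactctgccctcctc

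Over the 10 pairs of these 5 windows, 275 to 299 bases could be aligned, and 86.05% to 93.98% of them were identical, with the Gzme and Gzmd windows the most alike. Against the other 6 windows looked up, those of Gzma, Gzmb, Gzmk, Gzmm, Gzmn and Mcpt8, at most 49 bases were aligned. Gaps at the window ends cost nothing in this alignment, so a short overlap does not show that windows lack likeness. All 5 windows held TGTGGT, once on each strand, against 16.7% of the 32544 distinct RefSeq windows, which held it at least once. As close copies, the 5 windows are not independent readings, so the shares over all windows are given as a description only. In the Gzme window these matches began 175 bases before the start on the minus strand and 113 bases before it on the plus strand. TGACGT was found in the windows of 3 of the 5 genes, Gzmg, Gzmf and Gzmc, as a pair of overlapping matches on the 2 strands, and not in those of Gzme and Gzmd, where 7.55% of all windows held it. GGAAGT, the core of ETS factors, was in all 5, and in 23.7% of all windows.

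TTCNNNGAA, the site through which STAT factors act in IFN-γ signalling, was in 0 of the 5 windows and in 8.33% of all windows, and GAAANNGAA, a core form of the interferon-stimulated response element, was in 0 of the 5 and in 8.53% of all. The AP-1 site TGANTCA (7.79% of all windows), the E-box CACGTG (7.17%) and the TATA box TATAAA (13.6%) were also in 0 of the 5. The Gzmb window, with at most 24 bases aligned to any of the 5, held 2 TGTGGT matches, 1 TGANTCA, 1 TGACGT and 1 TTCNNNGAA. The Gzma window held GAAANNGAA 2 times, beginning 96 and 66 bases before the start, and TGTGGT once. A match is a string of letters in a window and says nothing of binding. Since the 5 windows are close copies, a motif found in all 5 or in 0 of them shows neither enrichment nor depletion.

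Of the 7 genes, 1 was well above background on any array and 6 on none. A reading is called well above background where the scanner software marks it so, and 4 of the 32 readings of the 8 probes were marked. All 4 belonged to Gzme, whose product is a granzyme of the rodent lineage, and all 4 were on LLC arrays.

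The Gzme probe A_55_P1971010 read 57.5 intensity units in LLC cells with IFN-γ and 269.7 in LLC cells with vehicle. The same probe read 2.11 in AB1-HA cells with IFN-γ and 3.19 in AB1-HA cells with vehicle, below the scanner's own error for these spots of 3.93 and 3.80 units. The Gzme probe A_55_P1971009 read 66.0 and 286.5 units in LLC cells with IFN-γ and with vehicle, against 1.87 and 2.09 in AB1-HA cells with IFN-γ and with vehicle. On both probes the LLC vehicle array was the highest, the LLC IFN-γ array came next, and the AB1-HA arrays were not well above background. The scanner's weaker mark, a signal positive and significant against its local background, was set for A_55_P1971010 on both AB1-HA arrays and for A_55_P1971009 on neither. The scanner errors of the 4 marked readings were 5.45 and 27.1 units on the first probe and 6.93 and 28.7 units on the second, each pair given for IFN-γ and then vehicle.

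The probe for Gzma, the tryptase of the family, read 7.35 units in LLC cells with IFN-γ, 5.80 in LLC cells with vehicle, 5.46 in AB1-HA cells with IFN-γ and 6.78 in AB1-HA cells with vehicle. None of these was well above background, though the scanner's weaker mark was set on all 4 arrays. The lowest signals well above background on the arrays were 7.53 to 8.26 units, just over the Gzma readings, and the scanner errors of the Gzma spots were 3.38 to 4.08 units. The Gzma readings therefore have no order among the 4 arrays.

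The probes of Gzmb, the aspartate-cutting granzyme, and of Gzmc, Gzmd, Gzmf and Gzmg lay between 1.48 and 2.002 units on every array, with scanner errors of 2.45 to 3.31 units. Gzmb read 1.75 and 1.69 units in LLC cells with IFN-γ and vehicle, and 1.58 and 1.76 in AB1-HA cells with IFN-γ and vehicle. Gzmd, whose start window is closest to that of Gzme, read 1.63 and 1.56 units in LLC cells with IFN-γ and vehicle, and 1.48 and 1.66 in AB1-HA cells with IFN-γ and vehicle. The medians of the 153 negative control spots of an array were 1.65 to 1.86 units, close to the readings of these 5 probes. Gzmg read 1.99 and 1.95 units in LLC cells with IFN-γ and vehicle and 1.77 and 2.002 units in AB1-HA cells with IFN-γ and vehicle, all below its scanner error. None of the 5 carried either mark on any array.

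**Figure D1:**
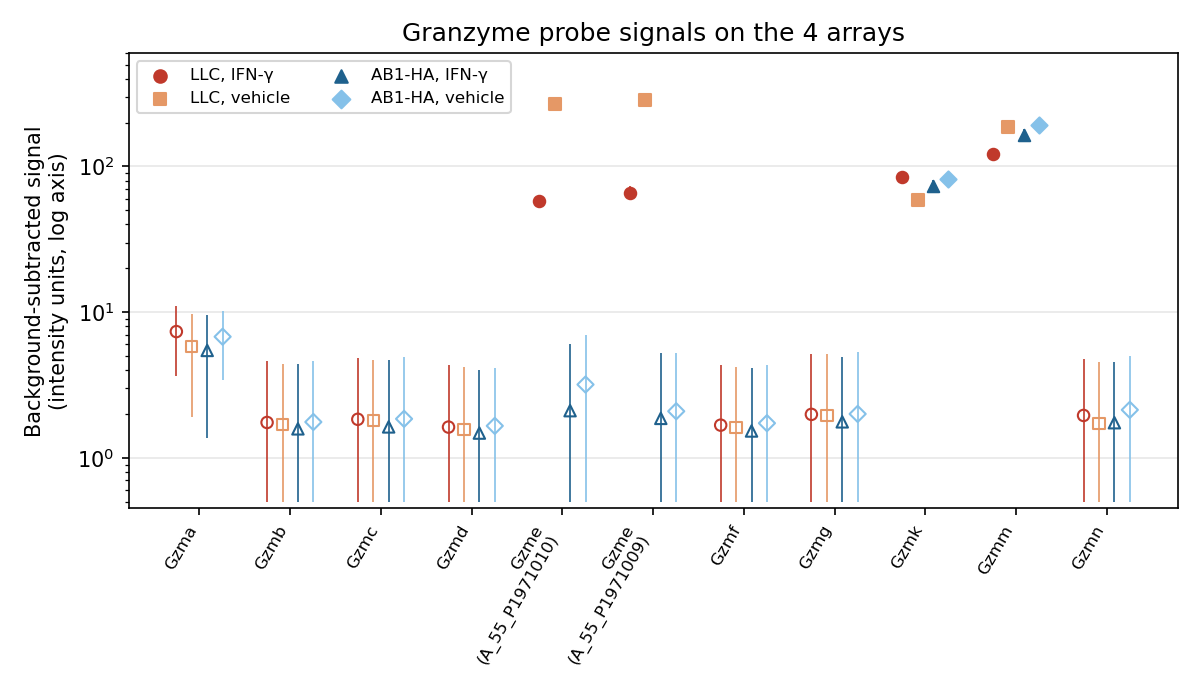
Background-subtracted signal (intensity units, log axis) of the 8 probes and of those for Gzmk, Gzmm and Gzmn, with a point for each of the 4 arrays, filled where well above background and open where not, and the scanner's error as a bar whose lower end is cut at the axis where it would pass below it; levels of different probes are not comparable. The Gzme probes read 57.5 to 286.5 units on the LLC arrays and 1.87 to 3.19 units on the AB1-HA arrays, the other members stayed at or below 7.35 units, and Gzmk and Gzmm read 58.8 to 193.8 units.

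IFN-γ cultures of LLC had less Gzme signal than vehicle cultures. Values were compared after scaling each array to its 75th percentile, which was 1400 units in LLC cells with IFN-γ and 1598 in LLC cells with vehicle. On probe A_55_P1971010 the difference of IFN-γ minus vehicle was -2.04 on the log2 scale, 4.11-fold lower, with an error of 0.20 carried over from the scanner's spot errors. On probe A_55_P1971009 it was -1.93, 3.80-fold lower, with an error of 0.21, and the 2 probes differed by 0.11. This error covers spot noise on 1 pair of arrays and not the spread between cultures.

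For spots alone, 42 probes printed at least 5 times per array and reading 50 to 300 units had a median SD of 0.08 and a highest SD of 0.17 for the same LLC difference. These SDs are of repeat spots within arrays and are given beside the Gzme values as technical noise, with no comparison drawn. Gzme was the 1 of 7 granzyme genes with an IFN-γ value in LLC, and it was at least 2-fold lower, where 1.36% of the 13389 genes that had a value were lower by 2-fold or more and 3.59% were higher by as much. Since Gzme was chosen with this known, nothing is read from its place among them.

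Among the 12881 genes measured on both LLC arrays, whose median difference was -0.06, the 2 Gzme probes stood at ranks 4 and 8 from the lowest. A set of 699 genes was, like Gzme, well above background on both LLC arrays and on neither AB1-HA array. Of these, 8.44% were at least 2-fold lower with IFN-γ and 3.72% at least 2-fold higher, with a median of -0.28. Within the set Gzme, by probe A_55_P1971010, stood at rank 2 from the lowest, after Dpt, which encodes the matrix protein dermatopontin, at -2.04. By A_55_P1971009, at -1.93, it would stand further from the lowest. These ranks only describe Gzme, which was chosen with its difference known.

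**Figure D2:**
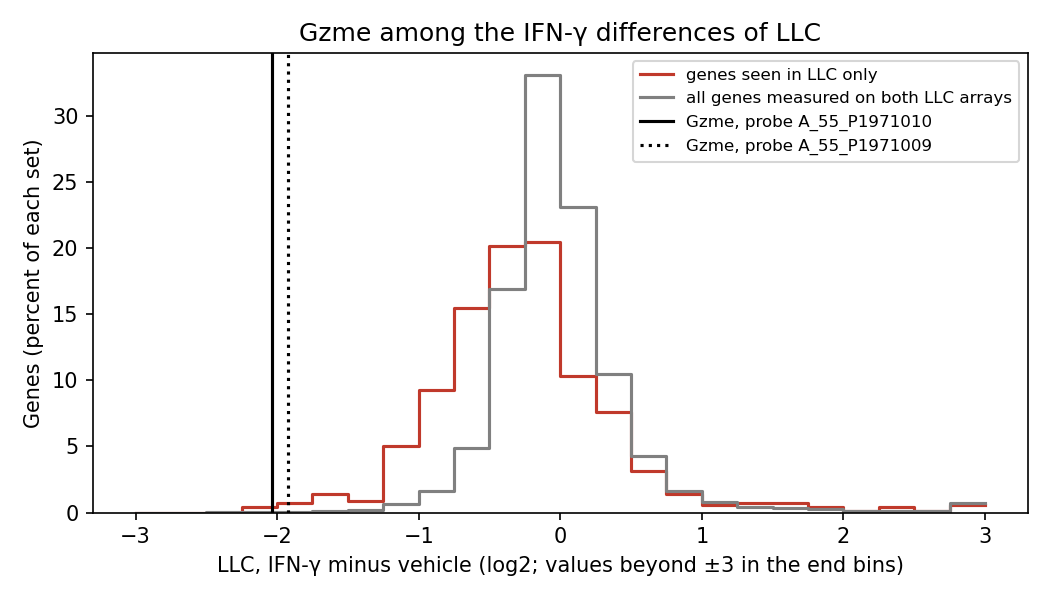
Share of genes (percent of each set) by their difference in LLC, IFN-γ minus vehicle (log2), for the genes measured on both LLC arrays and for the 699 genes seen in LLC and not in AB1-HA, with the 2 Gzme probes as lines. The probes are at -2.04 and -1.93, and the medians of the 2 sets are -0.06 and -0.28. Gzme was chosen with its difference known, so nothing is read from its place.

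The Gzme difference was smaller under another background correction. With a model-based correction (normexp) of the raw spot medians and their local background, with an offset of 50 units, it was -1.15 on A_55_P1971010 and -0.74 on A_55_P1971009, the second short of 2-fold. This setting changed the signal column, the background model and the offset together, and their separate parts were not tested. Under 3 other scalings the difference was larger than under the 75th percentile: it was -2.18 and -2.07 on the 2 probes under the array median, -2.17 and -2.06 under quantile normalization, and -2.26 and -2.15 under cyclic loess, with A_55_P1971010 first each time.

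**Figure D3:**
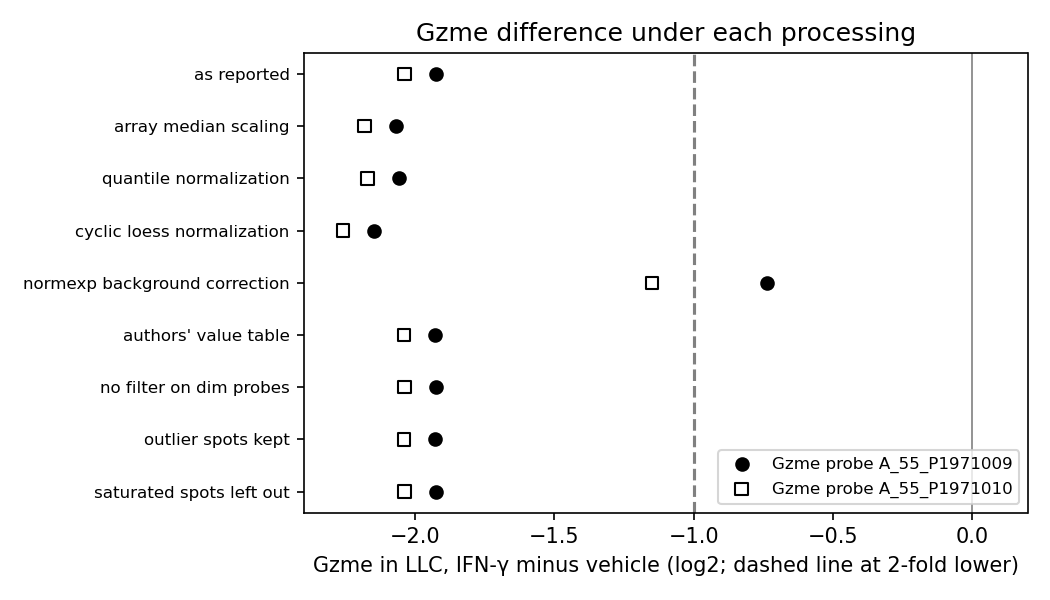
Difference of Gzme in LLC, IFN-γ minus vehicle (log2), for its 2 probes under each processing, with a dashed line at 2-fold lower. Every point is below 0, from -2.26 under cyclic loess on A_55_P1971010 to -0.74 under normexp on A_55_P1971009, the one point short of the dashed line.

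In AB1-HA cells 0 of the 7 granzyme genes had an IFN-γ value, since none was well above background on either array, while of the 13205 genes that had one 2.98% were higher by 2-fold or more and 1.17% lower. A granzyme difference in AB1-HA cells was therefore not detectable at these signals, which is not a measured lack of change. For the same reason the IFN-γ effect in LLC could not be set against that in AB1-HA for any of the 7 genes.

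Gzme differed between the lines on both probes. With IFN-γ it was at least 7.75-fold higher in LLC than in AB1-HA cells on A_55_P1971010 and at least 8.89-fold higher on A_55_P1971009. With vehicle it was at least 28.2-fold and at least 29.95-fold higher in LLC than in AB1-HA cells on the same probes. These are bounds against the lowest signal well above background on the AB1-HA array, since the AB1-HA readings were lower still. Under IFN-γ 15.4% of 13876 genes, and under vehicle 16.4% of 13833 genes, were at least 2-fold higher in LLC, and 13.1% and 15.9% were lower by as much.

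Both line differences shrank under normexp. There the difference of LLC minus AB1-HA was 0.21 and 1.20 on the log2 scale with IFN-γ, and 1.101 and 1.84 with vehicle, with A_55_P1971010 first in each pair. The first of these 4 values is below 2-fold, so the call with IFN-γ was lost on that probe under normexp. The other 6 granzyme genes gave no value between the lines in either culture.

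Of the 3 other granzymes with a probe, 2 were well above background on all 4 arrays. Gzmk, the tryptase beside Gzma on chromosome 13, read 84.9 units in LLC cells with IFN-γ and 58.8 with vehicle, and 73.1 and 81.5 units in AB1-HA cells with IFN-γ and vehicle. Its IFN-γ difference was 0.72 in LLC and -0.20 in AB1-HA on the log2 scale, both under 2-fold. Gzmm, on chromosome 10, whose product cuts after methionine and leucine, read 121.2 and 186.2 units in LLC cells with IFN-γ and vehicle, and 163.6 and 193.8 units in AB1-HA cells with IFN-γ and vehicle. Its differences were -0.43 and -0.28 in LLC and AB1-HA, and the LLC value was 0.06 under normexp. Gzmn, which lies inside the cluster between Gzmg and Gzmf, was read on 10 spots per array. Its 40 spot readings were 1.48 to 3.69 units and 0 were well above background.

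The genes around Gzma on chromosome 13 were read for comparison, since Gzma itself gave no value. Of the 4 with a probe, Gzmk among them, 2 were at least 2-fold higher in LLC cells with IFN-γ and 0 of 4 passed in AB1-HA cells in either direction, where over all genes 3.59% were higher in LLC and 2.98% higher and 1.17% lower in AB1-HA. Ccno, which encodes a cyclin of multiciliated cells, read 1003 and 560.4 units in LLC cells with IFN-γ and vehicle and 1245 and 2234 units in AB1-HA cells with IFN-γ and vehicle, a difference of 1.03 in LLC and -0.88 in AB1-HA. Esm1, which encodes the secreted proteoglycan endocan, read 13.97 and 2.83 units in LLC cells with IFN-γ and vehicle, at least 2.11-fold higher, and 23.7 and 33.3 units in AB1-HA cells with IFN-γ and vehicle. Both LLC values fell short of 2-fold under array median scaling, at 0.89 and 0.93 on the log2 scale for Ccno and Esm1.

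Of the genes that share the stretch of chromosome 14 with the cluster, Gzme lies at the edge nearest the chymases and cathepsin G. In the order of the RefSeq table the proteases run Cma1, Cma2, Mcpt1, Mcpt2, Mcpt9, Mcpt4, Mcpt8, Ctsg, Gzme, Gzmd, Gzmg, Gzmn, Gzmf, Gzmc and Gzmb, with pseudogenes and unnamed loci left out. Mcpt8, a granzyme-like protease used as a marker of mouse basophils and the second protease before Gzme, read 197.9 and 282.2 units in LLC cells with IFN-γ and vehicle, against 1.56 and 1.76 units in AB1-HA cells with IFN-γ and vehicle. Like Gzme it was seen on the LLC arrays alone, and with vehicle it was at least 29.5-fold higher in LLC. This bound was not recomputed under normexp, where the line difference of Gzme shrank. The IFN-γ difference of Mcpt8 in LLC was -0.32, under 2-fold, where that of Gzme was -2.04.

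Ctsg, the neutrophil protease cathepsin G that lies between Mcpt8 and Gzme, was at 2.90 and 3.86 units in LLC cells with IFN-γ and vehicle and at 4.83 and 5.39 units in AB1-HA cells with IFN-γ and vehicle, and well above background on none. Of the 8 mast cell and neutrophil proteases of the stretch that had a probe, 6 were well above background on no array. The remaining one besides Mcpt8 was Cma2, a chymase, at 114.1 and 84.6 units in LLC cells with IFN-γ and vehicle and 145.4 and 142.3 units in AB1-HA cells with IFN-γ and vehicle, with an LLC difference of 0.62 and an AB1-HA difference of -0.01.

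**Figure D4:**
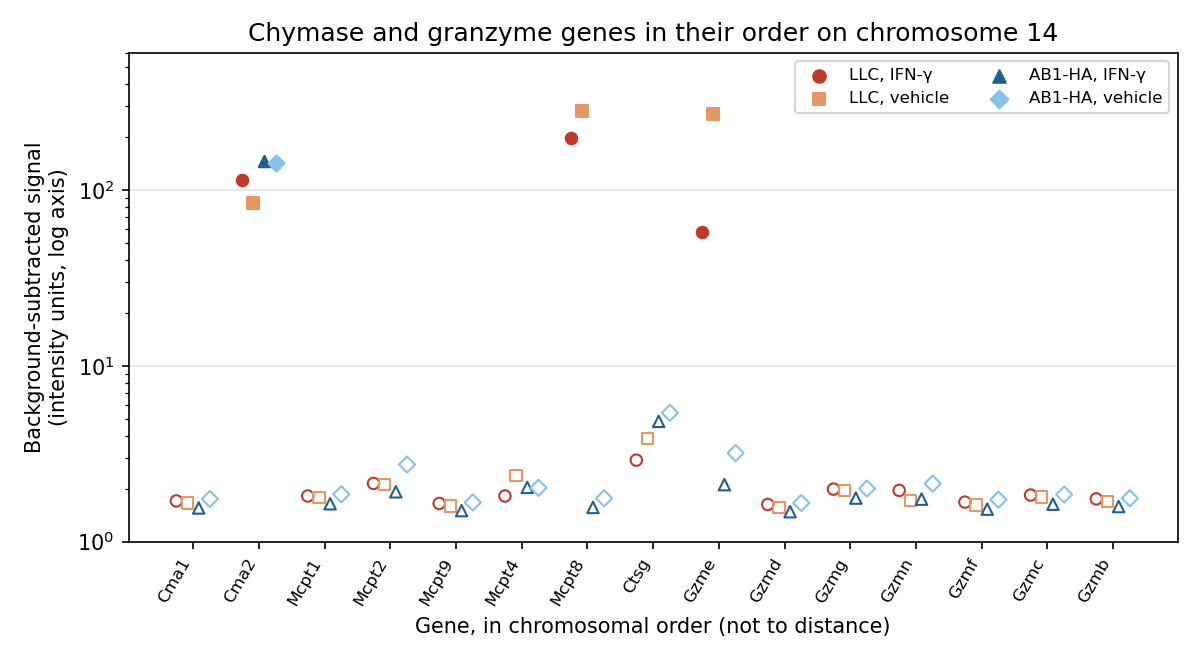
Background-subtracted signal (intensity units, log axis) of the chymase, cathepsin G and granzyme genes in their order on chromosome 14, not spaced to distance, with a point for each array; levels of different probes are not comparable. Mcpt8 and Gzme are well above background on the LLC arrays and not on the AB1-HA arrays, Cma2 is above background on all 4 arrays, and the rest lie at background.

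In RNA of whole cultures, fewer cells of a type and less RNA per cell cannot be told apart, so markers of the cells that usually make granzymes were read on the same arrays. Of the 29 T and natural killer cell markers, 11 were well above background in LLC cells with IFN-γ, 10 in LLC cells with vehicle, 14 in AB1-HA cells with IFN-γ and 11 in AB1-HA cells with vehicle, and 15 were on no array. The T cell genes Cd3d, Cd3g, Cd247 and Cd8a, and the natural killer cell genes Ncr1, Klrb1c, Klrd1 and Klrk1, were among these 15. They read 1.51 to 4.28 units and were singled out after their values were seen. Other genes of the list, Cd3e among them, went the other way and were well above background. Cd4, the T helper coreceptor, read 2766 units in LLC cells with IFN-γ and 2707 and 2374 units in AB1-HA cells with IFN-γ and vehicle. A second Cd4 probe disagreed, at 8.37 to 13.8 units over the 4 arrays. Lck, a T cell kinase, read 573.4 and 355.3 units in LLC cells with IFN-γ and vehicle and 2808 and 1658 units in AB1-HA cells with IFN-γ and vehicle, and Eomes, a killer cell transcription factor, 13.8 and 15.0 in LLC cells with IFN-γ and vehicle and 148.7 and 142.8 in AB1-HA cells with IFN-γ and vehicle. Cd5 and Lat were also above background on all 4 arrays, and Tbx21 on all but the AB1-HA vehicle array. Cd8b1 and Ifng were well above background in AB1-HA cells with IFN-γ alone, at 10.8 and 12.3 units. Ccl4 was so in AB1-HA cells alone, at 15.0 and 20.4 units with IFN-γ and vehicle. Cd3e, a chain of the T cell receptor complex, read 332.6 and 292.3 units in LLC cells with IFN-γ and vehicle and 356.4 and 358.9 units in AB1-HA cells with IFN-γ and vehicle.

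The summed signal of the list was 7382 units in LLC cells with IFN-γ and 1626 with vehicle, where Cd4 is missing because its vehicle spot was an outlier. In AB1-HA cells it was 8253 and 6771 units with IFN-γ and vehicle. These sums add unscaled signals of probes whose levels are not comparable, so bright probes weigh most and they are not amounts of a cell type. Members of the list at least 2-fold higher were 2 of 10 with a value in LLC and 1 of 14 in AB1-HA, against 3.59% and 2.98% over all genes. The list medians were 0.44 and 0.02 in LLC and AB1-HA, against -0.06 and -0.08 over all genes. The largest difference of the list in LLC was that of the chemokine gene Ccl5, 7.17 on the log2 scale and 4.26 under normexp, at 2418 units with IFN-γ and 19.2 with vehicle. Ctsw, which encodes cathepsin W of killer cells, passed 2-fold in both lines at 1.01 and 1.03 in LLC and AB1-HA, with signals of 14.6 to 33.2 units over the 4 arrays. In LLC it was 0.87 under array median scaling and 0.32 under normexp, and in AB1-HA 0.31 under normexp, all short of 2-fold. The probes of Nkg7, a granule membrane protein, disagreed, with 1 at 502.6 to 566.6 units on the 4 arrays and the other at 1.52 to 1.70 units.

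Of 11 general leukocyte and myeloid markers with a probe, 4 were well above background on each array and 7 on none. The pan-leukocyte gene Ptprc was among the 7, at 1.76 and 3.70 units in LLC cells with IFN-γ and vehicle and 6.06 and 4.07 units in AB1-HA cells with IFN-γ and vehicle. The 4 above background were Itgam, Cd14, Csf1r and Coro1a. Itgam, a myeloid integrin, read 3198 and 3209 units in LLC cells with IFN-γ and vehicle and 3698 and 3242 units in AB1-HA cells with IFN-γ and vehicle, and Cd14, an endotoxin coreceptor, 1403 and 1746 in LLC cells with IFN-γ and vehicle and 906.7 and 809.1 in AB1-HA cells with IFN-γ and vehicle. These are readings of the probe used for each gene, and other Itgam probes read 10.02 to 21.3 units over the 4 arrays. Csf1r, a macrophage growth factor receptor, was the 1 of 4 at least 2-fold higher with IFN-γ in LLC, and 0 of 4 passed in AB1-HA. Over all genes 3.59% were higher by as much in LLC and 2.98% in AB1-HA. The Csf1r probe used read 537.0 and 182.9 units in LLC cells with IFN-γ and vehicle, a difference of 1.74. A second probe read 283.9 and 267.2 units there, a difference of 0.28, and a further one was well above background on no array. The mean over the Csf1r probes gave 1.01. The list's summed signal was 5219 and 5246 units in LLC cells with IFN-γ and vehicle, and 5290 and 4849 units in AB1-HA cells with IFN-γ and vehicle. The Itgam probe used gave the largest part of each sum. Of 11 mast cell markers with a probe, 5 were seen on each LLC array, 4 on each AB1-HA array and 6 on none. Their sum was 2025 and 2675 units in LLC cells with IFN-γ and vehicle, and 1584 and 888 units in AB1-HA cells with IFN-γ and vehicle. Gata2 alone gave 1683 and 2218 of these units in LLC cells and 1345 and 767 in AB1-HA cells, each with IFN-γ and then vehicle. Sums of unscaled signals over probes whose levels are not comparable are not amounts of a cell type. At least 2-fold higher with IFN-γ were 1 of 5 mast cell markers in LLC and 1 of 4 in AB1-HA, against 3.59% and 2.98% over all genes. In both lines 0 of the list were lower, against 1.36% and 1.17% over all genes. Both calls were Hdc, which encodes the histamine-making enzyme, at 36.1 and 20.2 units in LLC cells with IFN-γ and vehicle and 137.0 and 28.9 in AB1-HA cells with IFN-γ and vehicle, a difference of 1.02 and 2.21. Under normexp these were 0.54 and 0.49, short of 2-fold, and the LLC value was also short of it at 0.81 to 0.88 under the 3 other scalings. Gata2, a transcription factor, read 766.9 to 2218 units over the 4 arrays, and Tpsb2 and Prss34 were also above background on all 4. A second Tpsb2 probe was well above background on none. The mast cell genes Cpa3, Kit, Fcer1a and Ms4a2 were on no array. The part of these lists in the Gzme difference was not tested.

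The line labels were read against a list of mesothelial and epithelial genes. Msln, the mesothelial surface protein mesothelin, read 50.1 and 154.2 units in LLC cells with IFN-γ and vehicle and 38827 and 50299 units in AB1-HA cells with IFN-γ and vehicle. Krt18, an epithelial keratin, read 92310 and 134098 units in LLC cells with IFN-γ and vehicle and 85.9 and 239.1 in AB1-HA cells with IFN-γ and vehicle. Krt19, a further epithelial keratin, was higher in AB1-HA, at 602.9 and 1167 units in LLC cells with IFN-γ and vehicle and 2282 and 3249 units in AB1-HA cells with IFN-γ and vehicle. With IFN-γ, 2 of 6 genes of the list with a value were at least 2-fold lower in each line and 0 higher. In LLC these were Msln, at -1.43 and at -0.62 under normexp, and the collagen gene Col1a1, at least 3.40-fold lower. In AB1-HA they were Krt8, at least 6.49-fold lower and at -0.70 under normexp, and Krt18, at -1.52 and at -0.81 under normexp. Wt1 and Upk3b of mesothelial cells and Epcam and Cdh1 of epithelial cells were well above background on no array. The IFN-γ treatment showed in all 7 response genes of the check list in both lines, with Irf1, an interferon-induced transcription factor, 21.6-fold higher in LLC and 21.8-fold higher in AB1-HA, and Cd274, the checkpoint ligand PD-L1, 48.3-fold and 194.2-fold higher in LLC and AB1-HA. On the log2 scale the Cd274 differences were 5.59 and 7.60, and under normexp 4.83 and 5.07.

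The genes that pack, activate and release granzymes were mostly seen in both lines. Of 17 in the list, 15 were well above background on each LLC array and 14 on each AB1-HA array. Of those with a value, 1 of 15 in LLC and 1 of 14 in AB1-HA was at least 2-fold higher with IFN-γ, and 0 were at least 2-fold lower in either line. Over all genes 3.59% were higher by as much in LLC and 2.98% in AB1-HA, and 1.36% and 1.17% lower. The list medians were 0.29 in LLC and 0.18 in AB1-HA, against -0.06 and -0.08 over all genes. The same gene, Unc13d, passed in both lines. It encodes Munc13-4, which primes lytic granules for release, and read 127.5 and 40.2 units in LLC cells with IFN-γ and vehicle and 62.3 and 27.2 units in AB1-HA cells with IFN-γ and vehicle. Its difference was 1.85 in LLC and 1.16 in AB1-HA, and 0.90 and 0.30 under normexp, short of 2-fold in both.

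Prf1, which encodes perforin, was well above background on all 4 arrays, at 579.2 and 332.4 units in LLC cells with IFN-γ and vehicle and 417.0 and 470.7 in AB1-HA cells with IFN-γ and vehicle. Its difference was 0.99 in LLC, just under 2-fold, and -0.21 in AB1-HA. Ctsc, which encodes the granzyme-activating cathepsin C, read 2074 and 3134 units in LLC cells with IFN-γ and vehicle, against 2.73 and 1.83 units in AB1-HA cells with IFN-γ and vehicle. Thus Ctsc shared with Gzme its presence on the LLC arrays alone, while its IFN-γ difference in LLC was -0.41. With vehicle it was at least 327.6-fold higher in LLC, a bound that was not recomputed under normexp. Srgn, which encodes serglycin, showed the opposite split, at 3.18 and 3.51 units in LLC cells with IFN-γ and vehicle, not above background, and 34.6 and 17.8 units in AB1-HA cells with IFN-γ and vehicle. Stx11, a syntaxin of granule fusion, differed by 0.69 in LLC and 0.44 in AB1-HA.

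Among the 11 serpin inhibitors of granzymes, 3 were well above background on each LLC array, and 6 in AB1-HA cells with IFN-γ and 7 with vehicle. With IFN-γ, 1 of 3 with a value in LLC was at least 2-fold higher and 0 lower, and of 7 in AB1-HA 1 was higher and 1 lower. The shares over all genes were 3.59% higher and 1.36% lower in LLC, and 2.98% and 1.17% in AB1-HA. Medians of the list were 0.47 and -0.05 in LLC and AB1-HA, against -0.06 and -0.08 over all genes. Serpinb9, whose product inhibits granzyme B, was the gene higher in both lines. It read 1102 and 281.6 units in LLC cells with IFN-γ and vehicle and 525.9 and 80.1 units in AB1-HA cells with IFN-γ and vehicle, a difference of 2.16 in LLC and 2.67 in AB1-HA. Under normexp these were 1.71 and 1.54, still beyond 2-fold.

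Members of the same serpin family went other ways. Serpinb9c read 35.04 and 71.2 units in AB1-HA cells with IFN-γ and vehicle, a difference of -1.06, and was not above background in LLC. It was short of 2-fold at -0.95 under cyclic loess and -0.44 under normexp. A second Serpinb9c probe was at background on all 4 arrays. Serpinb9f read 9.49 and 15.8 units in AB1-HA cells with IFN-γ and vehicle, a difference of -0.78. Serpinb9b, whose product inhibits granzyme M in the mouse, was at 1.88 to 2.22 units on the 4 arrays and above background on none. Serpinb6b, whose product inhibits granzyme A in the mouse, read 70.8 and 58.3 units in LLC cells with IFN-γ and vehicle, against 4571 and 2983 units in AB1-HA cells with IFN-γ and vehicle, and differed by 0.47 in LLC and 0.58 in AB1-HA.

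Of the 15 intracellular substrates and effectors of granzymes with a probe that were read, all were well above background on all 4 arrays. At least 2-fold higher with IFN-γ were 1 of 15 in LLC and 0 of 15 in AB1-HA, and 0 were lower in either line. Over all genes 3.59% in LLC and 2.98% in AB1-HA were higher, and 1.36% and 1.17% lower. The list medians were -0.07 and -0.24 in LLC and AB1-HA, against -0.06 and -0.08 over all genes. The gene in LLC was Bid, which encodes a cell death protein cut by granzyme B. It read 3528 and 1943 units in LLC cells with IFN-γ and vehicle and 6871 and 3817 units in AB1-HA cells with IFN-γ and vehicle. Its difference of 1.05 in LLC was 0.91 under array median scaling and 0.97 under normexp, both short of 2-fold, and its difference in AB1-HA was 0.81. Gsdme, which encodes the pore-forming gasdermin E that granzyme B can cut, read 3697 and 5563 units in LLC cells with IFN-γ and vehicle and 5582 and 7835 units in AB1-HA cells with IFN-γ and vehicle. It differed by -0.40 in LLC and -0.53 in AB1-HA, under 2-fold in both.

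**Figure D5:**
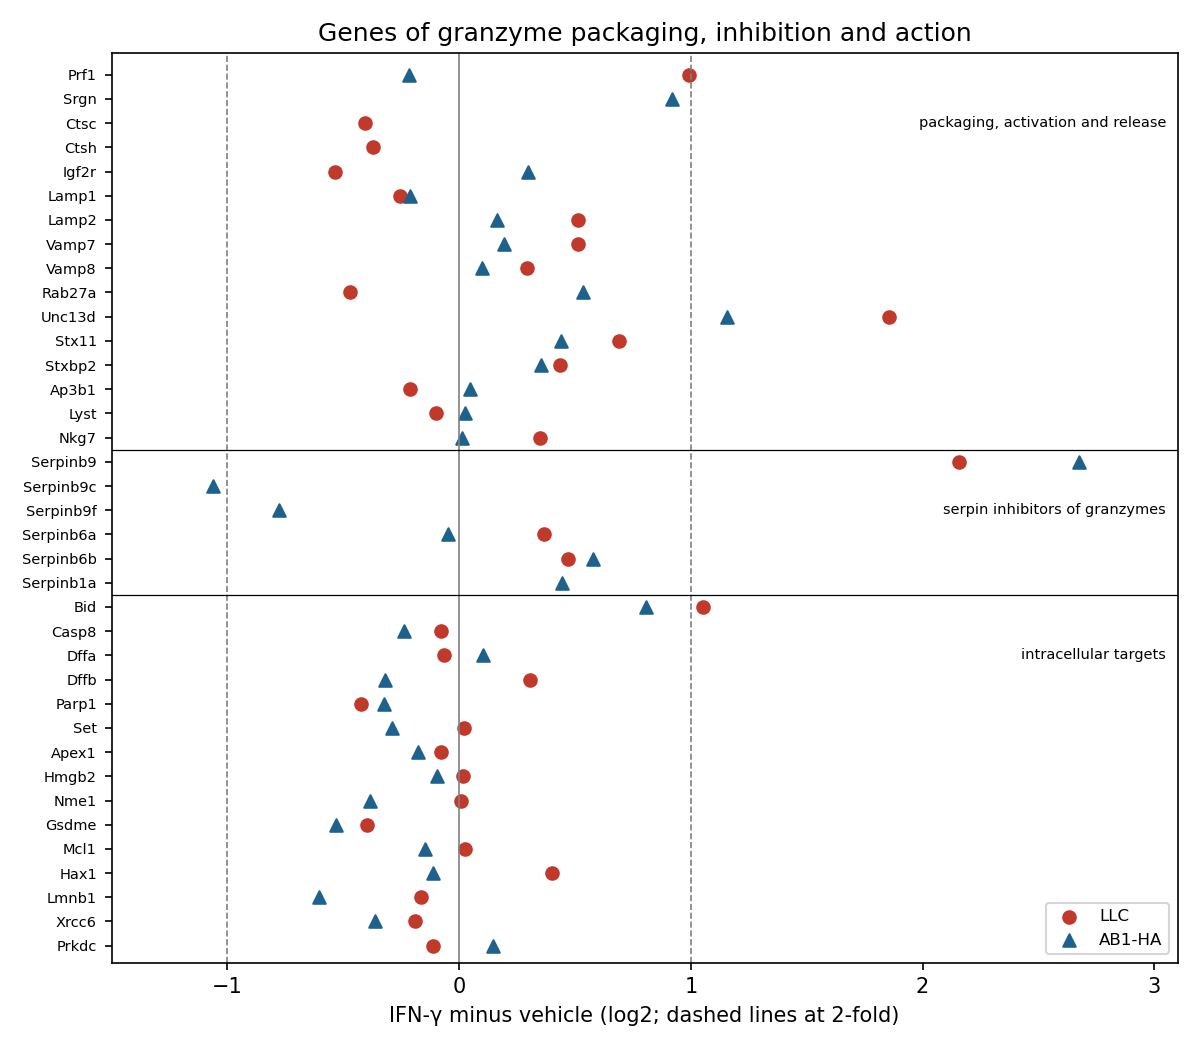
Difference of IFN-γ minus vehicle (log2) in LLC (circles) and AB1-HA (triangles) for the genes of granzyme packaging, inhibition and action that were measured on both arrays of a line, with dashed lines at 2-fold. Serpinb9 and Unc13d lie beyond 2-fold higher in both lines, and most others lie within the dashed lines.

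The genes with the pattern most like Gzme over the 4 arrays were found by the root mean square difference of log2 profiles, each centred on its own mean, from the brighter probe A_55_P1971009. Readings not well above background were first set to the lowest signal well above background on their array where they lay under it. On the 2 AB1-HA arrays Gzme and the 6 genes named were therefore equal by construction before centring, and their likeness rests on the 2 LLC arrays. After centring, the distance depends on how bright a probe is over the floor as well as on its IFN-γ difference. The ranking thus also favours probes of like brightness, though levels of different probes are not comparable. Of 12863 genes searched, the nearest were Txlnb, a taxilin, at 0.19, Frzb, a secreted Wnt antagonist, at 0.21, Atp6v0a4, a proton pump subunit, at 0.21, Acsbg1, an acyl-CoA synthetase, at 0.23, Entpd2, an ecto-nucleotidase, at 0.26, and Slc35f3, a carrier protein, at 0.27. The second Gzme probe lay at 0.08 from the first. Frzb read 92.8 and 348.0 units in LLC cells with IFN-γ and vehicle, against 1.58 and 1.81 units in AB1-HA cells with IFN-γ and vehicle, with an LLC difference of -1.72. Txlnb read 60.8 and 208.2 units in LLC cells with IFN-γ and vehicle, against 5.81 and 6.10 units in AB1-HA cells with IFN-γ and vehicle, with an LLC difference of -1.59. The search took only genes well above background on both LLC arrays, so the presence of these 6 genes there was set in advance. On the AB1-HA arrays the 6 were not well above background, a pattern that the shared floor favours, so it is not a finding. With 4 arrays such a ranking is loose: 40 genes lay within 0.5, 524 had a Pearson correlation above 0.99 with the probe, and 0 of the 6 were among the 6 highest by that correlation.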

How the data were processed

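Members and gene lists were chosen with earlier results of these arrays known. The intensity values were deposited as the scanner software wrote them. Feature Extraction 10.7.1.1 had subtracted background from each Cy3 spot, per the file headers, and had scaled nothing between arrays. The submitters' processing notes name Agilent Feature Extraction 10.7. The log2 value table deposited by the authors matched, at a correlation of 1.0 over 39313 probes, log2 signals scaled to the 75th percentile of an array, less the median of each probe over the 4 arrays; its column medians were 0.08 and -0.13 for LLC (IFN-γ, vehicle) and -0.08 and 0.11 for AB1-HA. Its direction was that of the signal. It was used as an alternative.

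From the processed intensity, log2 values were computed against the 75th percentile of the gene probes of the same array (pandas 2.3.3). Control spots and outlier spots (166 to 201 per array) were left out, and 0 gene spots were saturated. A probe needed the mark of the scanner on 0.5 or more of its spots to count as well above background, as 57.5% to 58.2% of the 39429 gene probes were. Accessions were matched to a RefSeq gene table of GRCm38.p6, which named 26575 probes for 20140 genes, and 12854 stayed unnamed; the headers give another build, so the table served for names and gene order. A gene took its probe with the highest mean of log2 values over the 4 arrays, which for Gzme was A_55_P1971010. A difference with 1 side not above background is a bound against the higher of that reading and the lowest signal well above background on that array, and with both sides below there is no value. The number of arrays limits the precision. Whether a probe also binds a close copy of its gene was not tested, since probe sequences were not used here.

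Named were all 7 members, the other granzymes, from each list up to 4 genes with the largest difference in either line plus a set named in advance, the 6 genes nearest in pattern, and others outside that rule that were singled out after their values were seen (Dpt, Ctsg, Nkg7, Cd4, Cd5, Cd8b1, Lat, Tbx21, Eomes, Ifng, Ccl4, Col1a1 and most markers listed as absent). Not every gene the rule names is given with its values, and 2 intracellular targets are not reported here. The method was tested on simulated data. Alternatives were array median, quantile and cyclic loess scaling and normexp (limma 3.58.1, on spot medians), the value table, other filters on dim, outlier and saturated spots, the mean over probes, and 1.5-fold.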

Additional observations from a re-analysis of the deposited data

How the results depend on the processing

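No paired analysis was possible because each group has 1 array. Among the values recomputed under the alternatives, those past 2-fold kept their sign. Values outside that set, such as the Col1a1 difference and the line differences of Mcpt8 and Ctsc, were not recomputed. Of 111 recomputed counts over the granzyme genes, 103 stayed within 1.5 times and 8 moved. The gene counts under the main setting were each 0 or 1, and 6 granzyme genes were well above background on no array. With the filter on dim probes those 6 had no value, and only the calls of Gzme could change. Counts that stayed at 0 therefore do not show that a result is stable. With normexp, 0 granzyme genes in place of 1 were at least 2-fold higher in LLC than in AB1-HA with IFN-γ. From the authors' value table, where only genes measured on both arrays were called, that count was 0 with IFN-γ and 0 with vehicle. With probes required on all 4 arrays, which Gzme is not, 0 granzymes were lower in LLC with IFN-γ and 0 were higher in LLC than in AB1-HA in either culture. With no filter on dim probes, 1 in place of 0 granzyme genes had a lower IFN-γ effect in LLC than in AB1-HA, from readings not well above background. By the scanner's weaker mark, 10 in place of 4 of the 32 readings were above background.

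Over all genes in LLC, 480 were at least 2-fold higher with IFN-γ and 182 lower. These counts were 391 and 308 by array median, 413 and 267 by quantile, 404 and 314 by cyclic loess, 254 and 21 by normexp, 891 and 487 with no filter, 323 and 68 with all 4 arrays required, and 1085 and 802 at 1.5-fold. In AB1-HA, 394 were higher and 154 lower, against 260 and 20 by normexp, 722 and 588 with no filter, 259 and 68 with all 4 arrays required, and 761 and 631 at 1.5-fold. Array median scaling moved the LLC median over all genes to -0.20, against -0.06 by the 75th percentile. Higher calls made up 72.5% of the LLC calls by the 75th percentile, 55.9% by array median, 60.7% by quantile, 56.3% by cyclic loess and 92.4% by normexp. In AB1-HA they made up 71.9% by the 75th percentile and 92.9% by normexp. Between the lines, 2275 were higher and 2196 lower in LLC with vehicle, against 1494 and 1410 by normexp and 3593 and 3822 at 1.5-fold. With IFN-γ these were 2136 and 1823, against 1890 and 2140 by array median, which turned the balance, 1359 and 1210 by normexp, 1391 and 1360 with all 4 arrays required, and 3429 and 3071 at 1.5-fold. Signals under about 8 units were not marked well above background, though some of them carried the scanner's weaker mark.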
